A study of Mus musculus with 6 samples.

Results

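The genes of the NF-kB subunits and of their inhibitors were examined in HSCs (hematopoietic stem cells, from which all blood cells descend) from mice given ferulic acid (FA) over the long term (l-FA) and from control (Ctrl) mice. The 10 genes were taken by their symbols from the 27198 genes of the deposited table, namely the subunits Nfkb1, Nfkb2, Rel, Rela and Relb and the inhibitors or regulators Nfkbia, Nfkbie, Nfkbiz, Tnfaip3 and Bcl3. Wild type male C57BL/6 mice aged 8 to 10 weeks received solvent (Ctrl) or intraperitoneal FA at 50 mg/kg body weight daily for 30 days (l-FA). HSCs were sorted from bone marrow as cells without lineage markers that carried Sca-1 and c-Kit and lacked Flk2 and CD34. There were 3 Ctrl and 3 l-FA libraries, and the number of mice behind a library is not stated, so n counts libraries and the p-values measure the spread between libraries, which may be technical.

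NF-kB is a dimer of Rel-family proteins that is held in the cytoplasm by IkB proteins until the IKK kinase complex marks the IkB for destruction. Freed dimers enter the nucleus and switch on genes of inflammation and survival, among them genes of their own inhibitors, which closes a feedback loop. A slower, noncanonical route runs through the kinase NIK, the precursor encoded by Nfkb2 and its partner RelB. In HSCs the pathway is known to answer TNF and interleukin signals and to influence survival and self-renewal.

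Because several of these genes are known targets of the pathway they belong to, promoters are shown first. RefSeq promoter windows (build GRCm38.p6, from 250 bases before to 50 bases after each annotated start) were matched for 7 of the 10 genes by symbol, leaving Nfkb1, Relb and Nfkbiz without one. The windows were searched on both strands for the NF-kB consensus, a 10-base motif made of 3 G, a purine, any base, A or T, 2 pyrimidines and 2 C. At least 1 match was present in the windows of 6 of the 7 genes, against 5.14% of the 27025 genes with a window and 6.08% of the 10598 of them that were tested here. Since known targets were among the genes chosen, this difference in shares is no independent support. A match is a run of letters and not evidence that a protein binds there. The 250 bases before the start follow for the genes with a match in them, and for Rela, which has none. Capitals mark the motif, and where matches overlap, as in Nfkb2 and Rel, the capitals cover both.
Nfkb2 (chr19:46304487-46304736, plus strand): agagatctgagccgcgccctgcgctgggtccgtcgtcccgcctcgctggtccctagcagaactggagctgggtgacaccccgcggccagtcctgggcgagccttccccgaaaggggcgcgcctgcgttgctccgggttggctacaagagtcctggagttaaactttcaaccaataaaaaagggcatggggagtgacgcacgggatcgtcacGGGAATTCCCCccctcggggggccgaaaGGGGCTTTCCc
Rel (chr11:23770970-23771219, minus strand): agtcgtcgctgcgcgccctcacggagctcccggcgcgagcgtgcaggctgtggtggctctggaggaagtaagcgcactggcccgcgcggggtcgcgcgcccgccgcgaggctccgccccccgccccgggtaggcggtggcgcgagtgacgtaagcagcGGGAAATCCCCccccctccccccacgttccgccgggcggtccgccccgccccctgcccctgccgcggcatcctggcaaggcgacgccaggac
Nfkbia (chr12:55492648-55492897, minus strand): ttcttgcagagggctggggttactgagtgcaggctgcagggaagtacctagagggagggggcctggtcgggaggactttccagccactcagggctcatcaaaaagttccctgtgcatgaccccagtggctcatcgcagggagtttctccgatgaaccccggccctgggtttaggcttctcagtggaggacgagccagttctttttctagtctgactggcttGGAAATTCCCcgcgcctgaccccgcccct
Nfkbie (chr17:45555450-45555699, plus strand): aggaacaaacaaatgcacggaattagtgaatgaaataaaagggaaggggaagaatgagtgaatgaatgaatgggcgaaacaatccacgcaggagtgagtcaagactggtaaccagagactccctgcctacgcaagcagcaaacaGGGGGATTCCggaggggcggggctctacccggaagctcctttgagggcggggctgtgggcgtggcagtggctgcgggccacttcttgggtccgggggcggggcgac
Tnfaip3 (chr10:19015411-19015660, minus strand): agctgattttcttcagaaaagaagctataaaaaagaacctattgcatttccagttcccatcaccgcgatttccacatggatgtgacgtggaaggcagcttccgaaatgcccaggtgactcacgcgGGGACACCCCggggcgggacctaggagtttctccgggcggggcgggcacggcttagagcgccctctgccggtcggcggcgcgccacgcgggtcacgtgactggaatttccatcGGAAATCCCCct
Rela (chr19:5637291-5637540, plus strand): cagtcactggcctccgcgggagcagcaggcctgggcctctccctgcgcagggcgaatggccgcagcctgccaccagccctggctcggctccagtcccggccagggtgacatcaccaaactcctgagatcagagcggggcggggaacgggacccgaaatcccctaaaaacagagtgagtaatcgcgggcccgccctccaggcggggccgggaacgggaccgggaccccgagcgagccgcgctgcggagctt
In the windows shown, the match nearest to the start began 11 bases before it in Nfkb2, 12 in Tnfaip3, 29 in Nfkbia, 91 in Rel and 106 in Nfkbie. Bcl3 held its match 3 bases after the start, outside the stretch shown for the others. Nfkb2 and Tnfaip3 have further annotated starts, 3 and 2 in all, and the sequence shown is that of the window farthest upstream. No match in Rela says only that these letters are not in this window.

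**Figure D1:**
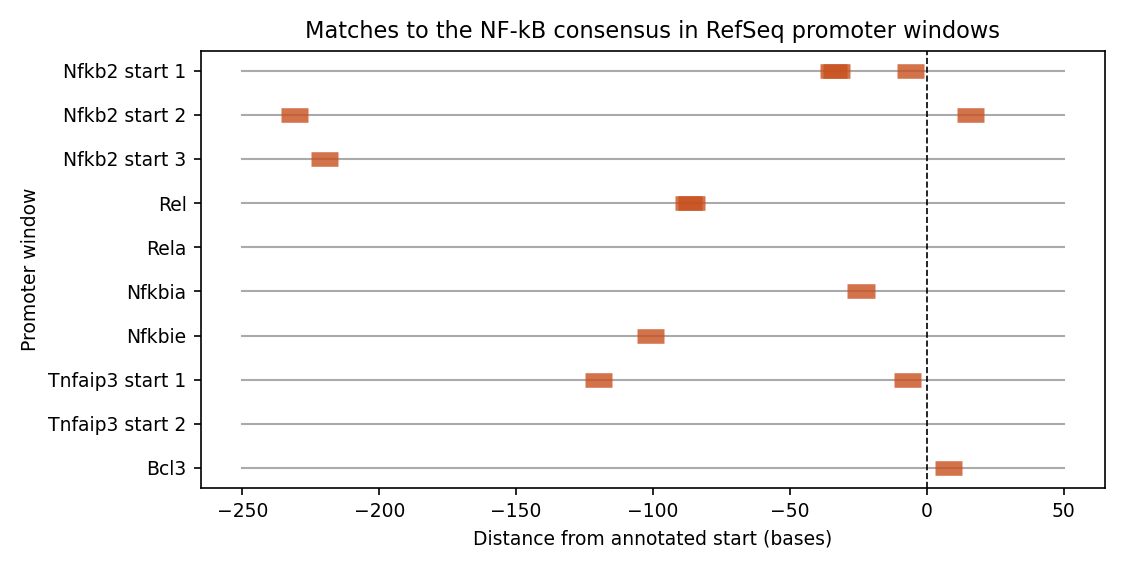
Positions of NF-kB consensus matches (orange blocks) along each promoter window (grey lines), in bases from the annotated start (dashed line at 0). Matches lie within 250 bases before a start in Nfkb2, Rel, Nfkbia, Nfkbie and Tnfaip3, just after the start in Bcl3, and nowhere in the window of Rela.

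Libraries held 19287735 to 20380610 counts, and those of the same group lay close together, with a median chi-square between pairs of 0.889 to 1.07 within groups and 8.20 to 8.83 between groups, where counting error alone gives 0.455. The HSC genes Kit (1046 to 1166 CPM over all libraries, where CPM is the count scaled by the TMM-normalized library size) and Procr (32.2 to 41.1 CPM) were present, while RNA of Cd34 (1325 to 1617 CPM) and Flt3, which encodes Flk2 (756 to 1196 CPM), was abundant although the sort excluded cells with these proteins on the surface. Most neutrophil and monocyte markers were much more abundant in Ctrl. Of 15 listed, 14 were tested, 11 were lower in l-FA, and 3 (Lyz2, Csf1r and Itgam) were higher. Their summed level was 23461 to 24304 CPM in Ctrl and 6238 to 6551 CPM in l-FA. Most of it was Mpo, with a mean of 18544 CPM in Ctrl and 4938 in l-FA. For these marker counts, 25.5% of all genes tested were called higher and 25.0% lower. Of the 12 HSC markers 8 were higher and 1, Hlf, lower, and of the 3 multipotent progenitor markers Cd34 and Flt3 were higher and Cd48 lower. Among the tested markers of other lineages, 1 of 4 B cell genes was higher, 2 of 4 T and NK cell genes were higher and 2 lower, 2 of 8 erythroid genes were higher and 1 lower, 2 of 5 megakaryocyte genes were higher, and 4 of 8 dendritic cell and macrophage genes were higher and 2 lower. The T cell, B cell and neutrophil genes Cd3e, Cd8a, Pax5 and Ly6g had at most 0.502 CPM in any library. Other genes of the same lists were abundant. Mean levels in Ctrl and l-FA were 556 and 307 CPM for Nkg7, 58.3 and 78.6 for Lck, and 53.0 and 61.7 for Cd79b. The part of such other cells in the results below was not tested, and in a bulk library fewer cells of a type and less RNA per cell cannot be told apart.

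Most of the NF-kB genes were higher in HSCs of l-FA-treated mice. Nfkb1, Nfkb2, Rel, Relb, Nfkbia, Nfkbie, Nfkbiz and Tnfaip3 rose, Bcl3 fell, and Rela did not pass the test. Fold changes of the 8 genes that rose lay between 1.22 and 2.24, and Bcl3 was 1.60-fold lower. Thus 9 of 10 genes passed an adjusted p under 0.05 in edgeR's quasi-likelihood test, against 50.5% of the 16520 genes tested, and 8 of 10 were called higher, against 25.5% of the genes tested, and 1 lower, against 25.0%. Among the 7689 genes whose mean count lay within the range of these 10 (291 to 3184), 25.8% were called higher and 53.9% in either direction. Scaling to total counts, chosen after seeing the data, made 5146 of 8351 called genes higher, in place of 4205 of 8336, and left the calls of the 10 genes as they were. Their median log2 fold change was 0.48, beside 0.00 over all genes tested. With a fold change above 2 required as well, only Relb was called, against 6.68% of genes called higher by that rule. The Ctrl and l-FA libraries did not overlap in 9 of the 10 genes, as was true of 60.3% of all genes tested. In 8 of the 10 every l-FA library was above every Ctrl library, as in 30.4% of all genes tested.

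**Figure D2:**
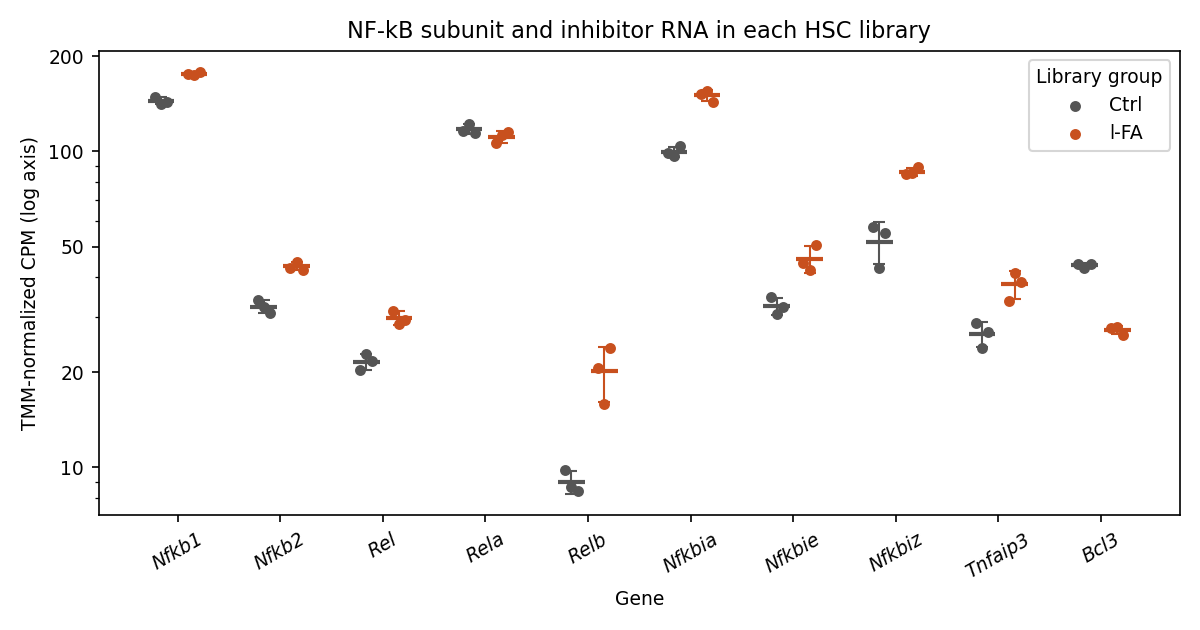
TMM-normalized CPM of each gene (log axis) in each of the 3 Ctrl (grey) and 3 l-FA (orange) libraries, with the mean (bar) and SD (whisker) of each group. The groups overlap only in Rela, all l-FA libraries are below all Ctrl libraries in Bcl3 and above them in the other 8 genes, and Relb has the widest spread within l-FA.

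Among the subunits, Relb, the partner of the Nfkb2 product in the noncanonical pathway, moved most. Relb (ENSMUSG00000002983, chromosome 7 from 19340142 to 19363363, build GRCm39) had 9.85, 8.68 and 8.43 CPM in Ctrl libraries 1 to 3 and 20.6, 15.9 and 23.8 CPM in l-FA libraries 1 to 3. Every l-FA library was well above every Ctrl library, but l-FA library 2 was clearly below the other two, and the gene had only 162 to 476 counts per library. Its mean went from 8.99 ± 0.756 to 20.1 ± 3.99 CPM (n = 3, SD), a log2 fold change of 1.16 (standard error, SE, 0.16, edgeR adjusted p = 0.00120). With each library left out in turn the log2 fold change of Relb stayed between 1.04 and 1.32.

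Nfkb2 (ENSMUSG00000025225, chromosome 19 from 46292759 to 46300824) encodes the precursor that is cut to the active subunit in the same noncanonical route. It had 33.8, 32.2 and 30.8 CPM in the Ctrl libraries and 42.9, 44.8 and 42.3 CPM in the l-FA libraries. The groups were clearly apart, with a log2 fold change of 0.42 (SE 0.054, edgeR adjusted p = 0.000890). The gene overlaps Psd (22 to 58 counts per library) and the noncoding RNA 4833438C02Rik (344 to 655 counts, log2 fold change 0.23, SE 0.24, edgeR adjusted p = 0.468), and whether strand was used in counting is not given in the sources used here.

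Nfkb1 (ENSMUSG00000028163, chromosome 3 from 135290416 to 135397308), the precursor gene of the classical DNA-binding subunit, had the most counts of the 10 genes. Its levels were 149, 142 and 144 CPM in Ctrl and 175, 175 and 178 CPM in l-FA. The rise was the smallest among the 8 genes that rose, yet its libraries agreed closely within each group, so that the log2 fold change of 0.28 had an SE of 0.029 (edgeR adjusted p = 0.000373). Rel (ENSMUSG00000020275, chromosome 11 from 23686847 to 23720970) encodes c-Rel, a subunit best known from lymphocytes. It had 20.3, 22.8 and 21.7 CPM in Ctrl and 31.3, 28.4 and 29.2 CPM in l-FA. All l-FA libraries were above all Ctrl libraries, with a log2 fold change of 0.46 (SE 0.069, edgeR adjusted p = 0.00184).

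Rela (ENSMUSG00000024927, chromosome 19 from 5687511 to 5698158), the main activating subunit of the classical pathway, was the exception. Its levels were 116, 122 and 114 CPM in Ctrl and 106, 113 and 115 CPM in l-FA, so that the groups overlapped. The log2 fold change was -0.08 (SE 0.045, edgeR adjusted p = 0.188), and its 95% interval ran from -0.19 to 0.03. That interval lies below the log2 fold changes of the other 4 subunits, the nearest being 0.28 for Nfkb1, whose own interval was 0.21 to 0.35.

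**Figure D3:**
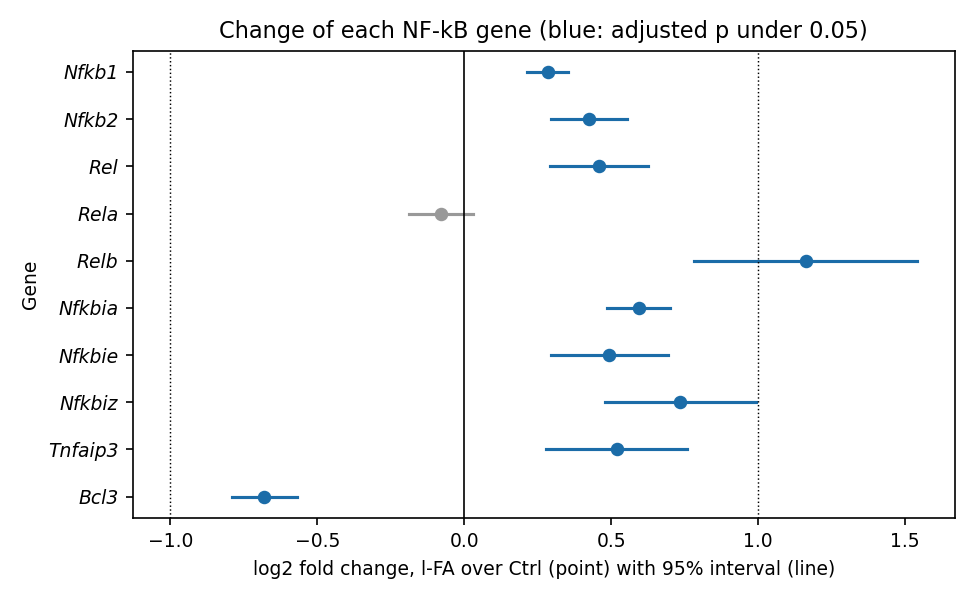
log2 fold change of each gene in l-FA over Ctrl (point) with its 95% interval from edgeR's fit (line); blue marks an adjusted p under 0.05, and dotted lines mark a fold of 2 in either direction. Relb is the only point beyond a dotted line, at 1.16, Rela spans 0, and Bcl3 is the only gene wholly below 0, at -0.68.

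The inhibitors of the feedback loop rose together. Nfkbia (ENSMUSG00000021025, chromosome 12 from 55536195 to 55539432) encodes IkB alpha, the classical inhibitor that NF-kB itself induces within minutes. It had 98.4, 96.5 and 104 CPM in Ctrl and 152, 156 and 143 CPM in l-FA. This was a rise from 99.5 ± 3.69 to 150.2 ± 6.24 CPM (n = 3, SD), or 1.51-fold, with a log2 fold change of 0.59 (SE 0.044, edgeR adjusted p = 0.000113).

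Nfkbie (ENSMUSG00000023947, chromosome 17 from 45866629 to 45874095) encodes IkB epsilon, a related cytoplasmic inhibitor with slower kinetics. Its levels were 34.6, 30.7 and 32.1 CPM in Ctrl and 44.4, 42.2 and 50.5 CPM in l-FA. The groups did not overlap, and the log2 fold change was 0.49 (SE 0.083, edgeR adjusted p = 0.00291). Tnfaip3 (ENSMUSG00000019850, chromosome 10 from 18876658 to 18891405) encodes a ubiquitin-editing enzyme that shuts off signaling upstream of IKK. It had 28.7, 23.9 and 26.8 CPM in Ctrl and 33.7, 41.3 and 38.7 CPM in l-FA. The lowest l-FA library was above the highest Ctrl library, with a log2 fold change of 0.52 (SE 0.10, edgeR adjusted p = 0.00511).

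The nuclear, atypical IkB genes Nfkbiz and Bcl3 moved in opposite directions. Both proteins bind NF-kB dimers on DNA and can activate as well as repress. Nfkbiz (ENSMUSG00000035356, chromosome 16 from 55631738 to 55659262), which encodes IkB zeta, had 57.4, 42.9 and 55.1 CPM in Ctrl and 84.5, 85.2 and 89.1 CPM in l-FA. Ctrl library 2 was lower than the other Ctrl libraries, and the log2 fold change of 0.74 (SE 0.11, edgeR adjusted p = 0.00158) ranged from 0.61 to 0.81 with each library left out in turn. Bcl3 (ENSMUSG00000053175, chromosome 7 from 19542387 to 19556695), first known as an oncogene of lymphoid leukemia, had 43.9, 42.8 and 44.1 CPM in Ctrl and 27.5, 27.8 and 26.3 CPM in l-FA. The libraries of each group were nearly level, and the fall of 0.68 on the log2 scale (log2 fold change -0.68, SE 0.047, edgeR adjusted p = 8.66e-05) had the smallest adjusted p of the 10 genes. Both noncoding genes that overlap Bcl3 had at most 9 counts in a library.

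To compare levels between genes, the deposited FPKM values were used, which scale each count to a length assigned to its gene and to library size. The order and the shares of genes depend on those lengths, which are not the genomic spans, and how they were set is not given in the sources used here. The deposited values imply 16.2 kb for Nfkb1, 14.0 for Tnfaip3, 5.64 for Rela and 1.98 for Nfkbia. By CPM, which leaves length out, Nfkb1 was the highest in both groups, at 145 in Ctrl and 176 in l-FA. By FPKM, Nfkbia was the most abundant in both groups, with 48.9 ± 2.07 FPKM in Ctrl and 77.9 ± 3.30 in l-FA (n = 3, SD), followed by Rela with 20.3 ± 0.625 and 20.3 ± 0.814. In Ctrl the order went on with Bcl3 (12.3 FPKM), Nfkb1 (8.66), Nfkbiz (6.85), Nfkb2 (4.89), Nfkbie (4.63), Rel (2.81), Tnfaip3 (1.84) and Relb (1.68). Neighbors overlapped between libraries only for Nfkb2 with Nfkbie and for Tnfaip3 with Relb. In l-FA, Bcl3 dropped from the 3rd place to the 5th (8.09 FPKM), below Nfkbiz (12.0) and Nfkb1 (11.1), and Relb (3.97) came level with Rel (4.08), whose ranges overlapped as did those of Nfkb2 (6.93) and Nfkbie (6.88). Tnfaip3 was then the lowest, at 2.79 FPKM.

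The makeup of the Rel family shifted accordingly. Of the summed FPKM of the 5 subunits, Rela took 52.9 ± 1.04% in Ctrl and 43.7 ± 1.28% in l-FA, while Relb took 4.38 ± 0.342% and 8.54 ± 1.53% (n = 3, SD). By library, the Relb share was 4.78%, 4.16% and 4.22% in Ctrl and 8.93%, 6.85% and 9.85% in l-FA, and the groups did not overlap. By FPKM, Nfkb1 was the second most abundant subunit throughout, at 21.7% to 24.3% in any library, although by CPM it was above Rela in every library. The ratio of the 3 IkB genes Nfkbia, Nfkbie and Nfkbiz to the 5 subunits, which does not depend on scaling between libraries, was 1.58, 1.47 and 1.68 in Ctrl and 2.13, 2.16 and 1.98 in l-FA. The RNA of these 3 IkB genes therefore rose more than subunit RNA, by 1.33-fold in the ratio, which is a description with no test. The size of the rise depends on the inhibitors chosen. The IkB gene Nfkbib, not among the 10 genes, was left out and was nearly level, at 18.8 ± 0.429 FPKM in Ctrl and 19.3 ± 0.901 in l-FA. With Tnfaip3 and Bcl3 added to the inhibitors the ratio rose 1.19-fold, since Bcl3 fell.

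**Figure D4:**
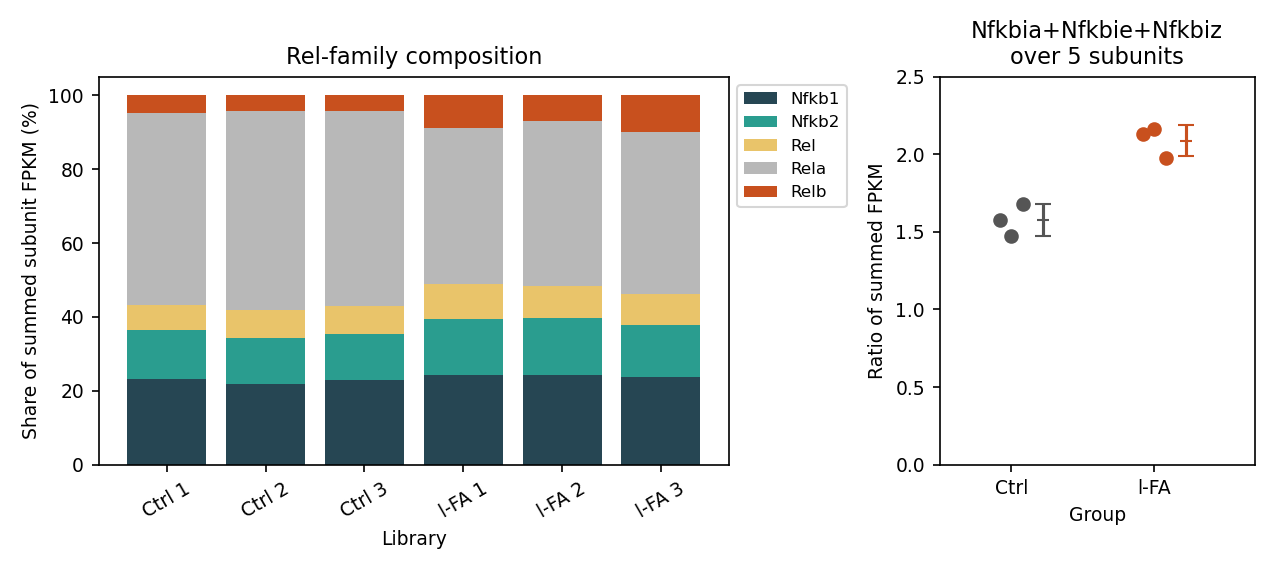
Left, share of each subunit gene in the summed FPKM of the 5 subunits, by library (%). Right, ratio of the summed FPKM of Nfkbia, Nfkbie and Nfkbiz to that of the 5 subunits, by library (points) with mean and SD (whiskers). Rela shrinks from 52.9% to 43.7% and Relb grows from 4.38% to 8.54% on average, and the ratio is between 1.47 and 1.68 in Ctrl and between 1.98 and 2.16 in l-FA.

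Other genes of the pathway were taken from 7 lists with 98 symbols, of which 85 were tested, 34 were higher and 13 lower in l-FA, with a median log2 fold change of 0.14. Over all genes tested 25.5% were called higher and 25.0% lower, with a median of 0.00, and the list counts that follow are to be read against these shares, to which the 47 of 85 called in either direction, beside 50.5%, came close. Of the remaining IkB genes, Nfkbid, which encodes another nuclear IkB, rose by 0.48 on the log2 scale (SE 0.051, edgeR adjusted p = 0.000459), and Nfkbib, which encodes IkB beta, had 57.4 ± 1.21 CPM in Ctrl and 55.9 ± 2.45 in l-FA (n = 3, SD; log2 fold change -0.04, edgeR adjusted p = 0.523). In the list of IKK, the kinase complex that triggers IkB loss, and its activators 3 of 11 genes were higher and 3 lower, with a median log2 fold change of 0.02. Ikbkb, the catalytic subunit of the classical route, had 209 ± 3.84 CPM in Ctrl and 201 ± 2.35 in l-FA (log2 fold change -0.06, edgeR adjusted p = 0.105). Its scaffold Ikbkg, which overlaps G6pdx, had 42.7 ± 1.95 and 47.9 ± 9.34 CPM (log2 fold change 0.17, edgeR adjusted p = 0.341), and Chuk, the kinase subunit used by the noncanonical route, fell by 0.18 (SE 0.055, edgeR adjusted p = 0.0363). Map3k7, the kinase upstream of IKK, had a log2 fold change of -0.60 and Tank of -0.43, while Map3k14, which encodes NIK, rose by 0.37 and Tab3 by 0.34.

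Adaptors and ubiquitin ligases were mixed, with 6 of 21 higher and 3 lower and a median log2 fold change of 0.09. Birc2, a ubiquitin ligase that keeps NIK low, rose from 58.9 ± 0.261 to 104.6 ± 1.64 CPM (n = 3, SD; log2 fold change 0.83, edgeR adjusted p = 1.10e-05), and Traf1, a known NF-kB target, by 0.66. Irak1, a kinase of Toll-like and interleukin receptors, had a log2 fold change of -0.58. Of the NIK-degrading complex, Traf2 rose by 0.28 (edgeR adjusted p = 0.000423), Birc3 had 0.14 (adjusted p = 0.131) and Traf3 -0.33 (adjusted p = 0.557), the last with 45.1, 11.9 and 38.7 CPM in the l-FA libraries. These 3 genes were picked after their values were seen.

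Among the deubiquitinases and partners of Tnfaip3, 4 of 9 were higher and 2 lower. The Tnfaip3-binding proteins Tnip3 and Tnip1 rose by 0.57 and 0.37 on the log2 scale, whereas Rnf11, a further partner of that enzyme, went from 19.2 ± 0.652 to 7.63 ± 0.126 CPM (n = 3, SD; log2 fold change -1.33, SE 0.067, edgeR adjusted p = 2.94e-05). Otulin, which removes linear ubiquitin chains and overlaps Ank, had a log2 fold change of -1.14.

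At the top of the pathway, 4 of the 8 ligands listed had enough counts to be tested, and these 4 were called higher in l-FA. Tnf had 2.46 ± 0.0825 CPM in Ctrl and 5.94 ± 0.819 in l-FA (n = 3, SD; log2 fold change 1.27, SE 0.14, edgeR adjusted p = 0.000476), which is low in absolute terms, with 84.0 counts per library on average. Ltb, the lymphotoxin subunit that signals through Ltbr, rose by 0.78 and Il18 by 0.59. Tnfsf13b had at most 2 counts in a Ctrl library and 10 to 14 in an l-FA library, so it passed the count filter only through l-FA. It could therefore only be counted as higher. Of the untested ligands, Il1b was lower in l-FA, with 4 to 12 counts in a Ctrl library and 1 to 3 in an l-FA library. Lta, Tnfsf11 and Il1a had 0 counts in every Ctrl library. In the l-FA libraries they had 5 to 23, 3 to 9 and 0 to 3 counts. Tnf, Tnfsf13b and the untested ligands were named after their values were seen. Of the receptors, 5 of 13 tested were higher and 2 lower, with a median log2 fold change of -0.02. Il18r1 rose from 2.13 ± 0.309 to 9.07 ± 0.948 CPM (log2 fold change 2.09, SE 0.15, edgeR adjusted p = 9.28e-05) and Tnfrsf13c, the BAFF receptor, by 0.86. Ltbr and Tlr6 had log2 fold changes of -0.44 and -0.51. The noncanonical receptors Ltbr and Tnfrsf13c thus changed in opposite directions.

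Of the known NF-kB target genes, 11 of 25 tested were higher and 3 lower, with a median log2 fold change of 0.26, so that 14 of 25 were called in either direction, near the 50.5% of all genes tested. Ier3, an early survival gene, rose from 57.2 ± 1.16 to 105.3 ± 0.573 CPM (n = 3, SD; log2 fold change 0.88, SE 0.032, edgeR adjusted p = 1.06e-05). The chemokine genes Ccl4 and Ccl3 rose by 0.73 and 0.63 on the log2 scale. Vcam1, an adhesion molecule, went the other way, with a log2 fold change of -1.12 (SE 0.12, edgeR adjusted p = 0.000429). Past 2-fold, Cxcl10, Ptgs2 and Cxcl2 were also higher and Il6 lower, all under 5 CPM in every library and named after their values were seen.

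Immediate early genes, which respond within minutes to growth signals and to cell handling, were also mostly higher. Of 17 tested, 12 were higher and 3 lower, with a median log2 fold change of 0.68, and their summed level was 3559 to 4936 CPM in Ctrl and 8255 to 8406 CPM in l-FA. The part of handling in the rise of the NF-kB genes was not tested. Jun was the most abundant gene of this list in l-FA, at 2615 to 2707 CPM, but was not called (log2 fold change 1.38, SE 0.75, edgeR adjusted p = 0.176). The lowest Ctrl sum belongs to library 1, where Jun had 134.6 CPM against 1466 and 1469 in the other Ctrl libraries. Fos (502, 512 and 485 CPM in Ctrl libraries 1 to 3) and Egr1 (417, 410 and 414) had no such gap. For the 10 NF-kB genes the highest and lowest libraries within a group differed by at most 1.50-fold, which says nothing about handling.

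**Figure D5:**
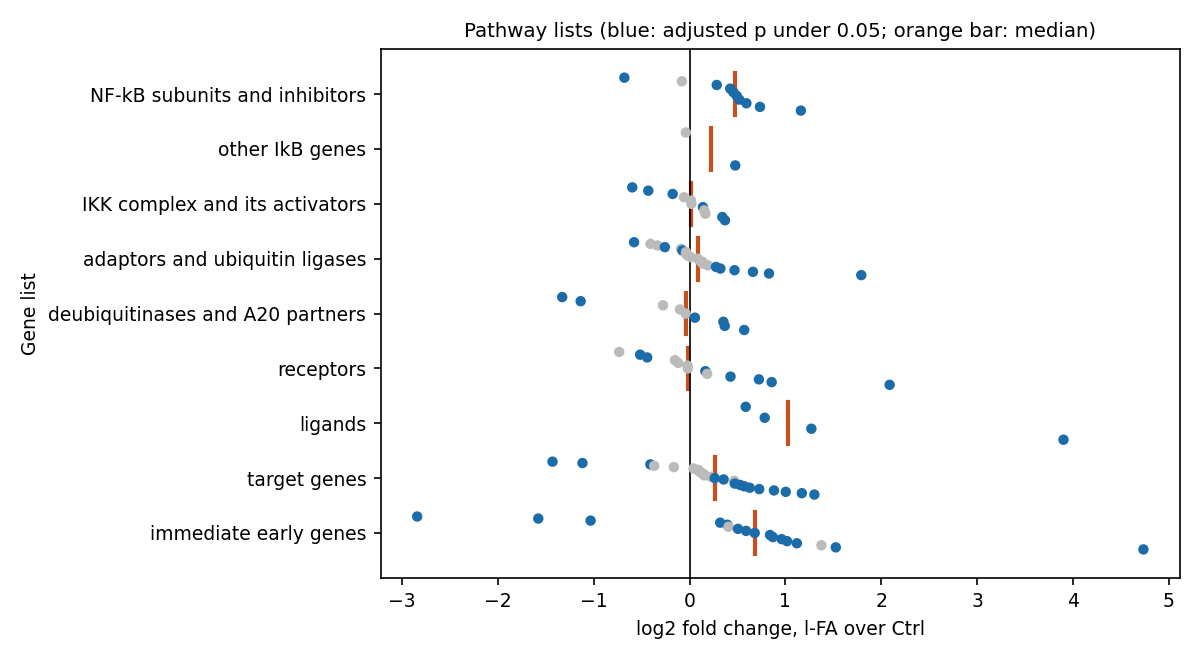
log2 fold change in l-FA over Ctrl for every tested gene of the NF-kB subunits and inhibitors, the 7 pathway lists and the immediate early genes (points; blue, adjusted p under 0.05), with the median of each list (orange bar). The NF-kB genes have a median of 0.48, the IKK list 0.02, the receptors -0.02 and the immediate early genes 0.68.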

How the data were processed

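RNA of HSCs was measured in 3 Ctrl and 3 l-FA libraries by sequencing of amplified cDNA. Raw gene counts (whole numbers) were deposited by the authors, together with deposited FPKM values, which scale them to a length assigned to each gene and to library size. The submitters' processing notes name build GRCm39, HISAT2, SAMtools 1.3.1, StringTie and edgeR, without their roles. Gene coordinates are as deposited, and promoter coordinates are of GRCm38.p6.

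The quasi-likelihood test of edgeR 4.0.16 (R 4.3.3) was run on the counts after filterByExpr and TMM scaling, and p-values were adjusted by Benjamini-Hochberg across the 16520 genes kept. The paper's methods name DESeq2 and a limit of 2 on the fold change, so DESeq2 1.42.0 and that limit were alternatives. The standard error is the log2 fold change divided by the square root of F, and 95% intervals use the t distribution with edgeR's degrees of freedom. The fit was tested on simulated data. FPKM values served to compare genes within a library, and the levels, ranks, shares and ratios so obtained were set side by side between groups without a test.

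The 10 genes and all lists were chosen with earlier results of these data known. Named pathway genes are, per list, up to 4 with the largest change among those past the threshold whose normalized count averaged 100 or more and that had groups that do not overlap, plus Chuk, Ikbkb, Ikbkg, Nfkbib and Nfkbid. A gene that met this rule is not reported here. Any other is said to be named after its values were seen. Markers of other cells and immediate early genes are given by their list counts. With 3 libraries a group the smallest exact permutation p is 0.1, so none is given. Alternatives were other scalings, filters, DESeq2, the replicate number as a block and each library left out. The cDNA was counted without molecular identifiers, and the p-values measure the spread between libraries, which may be technical.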

Additional observations from a re-analysis of the deposited data

How the results depend on the processing

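All 13 other fits kept 8 of the 10 genes higher, Bcl3 lower and Rela not called. With a fold change above 2 required, 1 of the 10 genes passed in place of 9, and 1946 of all genes in place of 8336. The log2 difference of the inhibitor to subunit ratio was 0.41, 0.40 with Nfkbia alone, 0.26 with all 5 inhibitors, a value that Bcl3 lowers, and 0.36 to 0.45 with each library left out. Total-count scaling, added after seeing the data, moved the median of all genes by 0.08 and made 5146 of 8351 called genes higher, in place of 4205 of 8336. It gave 0.00 for Rela and kept all 9 calls. With the replicate number as a block 9 of the 10 genes and 7405 of all genes passed. Same-numbered libraries did not deviate together (correlations from -0.05 to 0.02, and from -0.07 to 0.08 for other pairs). With 3 libraries a group this cannot exclude a pairing, and what the numbers stand for is not stated. Among the 95 pathway genes listed, 40 to 50 passed under the alternatives. Depth limits Relb most among the 10 genes, at 162 counts in its lowest library.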
